A study of Mus musculus with 12 samples.

Results

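The genes that encode the enzymes assembling triglyceride from glycerol 3-phosphate and fatty acyl-CoA were examined in primary cultured mouse hepatocytes. The 9 genes (Gpam, Agpat2, Agpat3, Lpin1, Lpin2, Lpin3, Dgat1, Dgat2 and Mogat1) were taken by their symbols from the 22471 features quantified. RNA sequencing had been performed on 12 libraries, 3 in each of 4 groups. All hepatocytes were isolated, per the study's methods, by collagenase perfusion of livers from 6-week-old male C57BL/6J mice, so that every group shared strain, sex and age. Con was the control group. ConOA received 0.2 mM oleic acid (OA), the monounsaturated fatty acid used to make hepatocytes store fat, for 16 h. BBR received 15 µM benzbromarone, a uric acid-lowering drug, for 16 h, and BBROA received both. Per the study's methods, OA was mixed with bovine serum albumin before use. Whether Con and BBR received albumin is not stated, so OA below means OA with this carrier. The labels do not say whether the 3 libraries of a group stem from different mice or from wells of a single isolation, so p-values measure only the spread between these libraries, which may be technical.

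Triglyceride is built in the liver by a chain of acylations. Gpam, the mitochondrial glycerol-3-phosphate acyltransferase, adds the first acyl chain and commits glycerol 3-phosphate to glycerolipid synthesis. The 1-acylglycerol-3-phosphate acyltransferases Agpat2 and Agpat3 add another chain to give phosphatidic acid, which the lipins (Lpin1, Lpin2 and Lpin3) dephosphorylate to diacylglycerol. Dgat1 and Dgat2 attach the last chain. Mogat1, which acylates monoacylglycerol to diacylglycerol, enters the chain from the side and is known to be scarce in lean mouse liver. Phosphatidic acid and diacylglycerol also feed phospholipid synthesis, so the middle enzymes serve both products.

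The lipins catalyse the same reaction from 3 separate genes. Without OA, BBR raised Lpin1 and Lpin2 and lowered Lpin3, so the sequence before their start sites is shown. The windows hold the 250 bases upstream of a RefSeq transcript start (GRCm38.p6), 5′ to 3′ on the gene's strand, with the first window listed for each gene. Capitals mark the E-box CACGTG, the letters bound by USF and related factors, and the nuclear receptor half-site AGGTCA (or TGACCT).
Lpin1, chr12:16610967-16611216, minus strand: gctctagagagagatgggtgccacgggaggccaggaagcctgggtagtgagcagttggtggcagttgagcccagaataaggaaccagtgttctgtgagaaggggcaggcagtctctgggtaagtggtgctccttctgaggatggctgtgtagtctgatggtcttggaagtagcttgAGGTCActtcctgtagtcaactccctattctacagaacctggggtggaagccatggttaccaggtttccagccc
Lpin2, chr17:71183282-71183531, plus strand: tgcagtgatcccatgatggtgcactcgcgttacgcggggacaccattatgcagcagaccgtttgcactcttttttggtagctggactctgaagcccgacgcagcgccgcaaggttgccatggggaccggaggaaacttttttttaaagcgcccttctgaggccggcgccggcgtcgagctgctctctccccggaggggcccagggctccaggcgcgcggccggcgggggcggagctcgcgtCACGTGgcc
Lpin3, chr2:160880420-160880669, plus strand: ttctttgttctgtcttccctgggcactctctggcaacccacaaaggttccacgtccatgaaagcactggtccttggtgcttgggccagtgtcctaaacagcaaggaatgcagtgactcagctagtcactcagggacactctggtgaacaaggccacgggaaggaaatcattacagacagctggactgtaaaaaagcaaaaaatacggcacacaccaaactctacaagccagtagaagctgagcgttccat
The Lpin1 window held AGGTCA with its first base at position -74 from the start. The Lpin2 window held CACGTG at -9 from its RefSeq start. That start lies inside the gene as placed by GENCODE, which begins at base 71182560. Lpin2 windows 2 and 3, not printed, held neither string. In the Lpin3 window neither string was present. GC content was 54.8%, 65.2% and 49.6%, respectively. Windows were found for 7 of the 9 genes (11 windows), and Dgat1 and Dgat2 had no entry. Among these 11 the only further marked match was an AGGTCA at -196 in the window before an internal Gpam start. On both strands, CACGTG occurred in 6.02% of the 32851 mouse promoter windows of the same length and AGGTCA in 14.0%. The direct repeat AGGTCANAGGTCA (0.0335% of all windows) and the sterol regulatory element TCACNCCAC (1.05%) had no match in the 11 windows. A match is a description of the letters and not evidence of binding.

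Total counts per library ran from 15485498 to 23668371, so that 1 count was worth between 0.0423 and 0.0646 CPM (counts scaled by the library total) and the floor of 3 counts between 0.127 and 0.194 CPM, for counting error only. Libraries of 1 group differed by more than counting noise in every pair. The hepatocyte markers Alb, Ttr, Apoa1, Apob, Trf, Fgb and Hnf4a were all detected, with summed levels of 42245 to 50447 CPM. Markers of other liver cells were low. Summed Kupffer cell markers measured 19.4 to 23.1 CPM in Con, 22.7 to 29.9 in ConOA, 17.1 to 22.7 in BBR and 25.7 to 34.2 in BBROA, so that BBR and BBROA did not overlap. Within that list Marco (1.15 to 1.26 CPM in Con, 6.13 to 8.26 in ConOA, 1.08 to 2.12 in BBR and 6.55 to 9.71 in BBROA) and Adgre1 were higher in every OA-treated library than in any other. Clec4f and C1qa were lower in every OA-treated library. C1qa measured 4.96 to 6.15 CPM in Con, 2.94 to 4.08 in ConOA, 4.57 to 5.99 in BBR and 4.07 to 4.45 in BBROA. For Vsig4, Cd5l and Csf1r the libraries with and without OA overlapped. Endothelial markers lay between 33.4 and 43.0 CPM and stellate markers between 18.6 and 25.8 CPM. Cholangiocyte markers summed to 37.4 to 43.6 CPM in Con, 49.8 to 68.9 in ConOA, 59.5 to 69.5 in BBR and 48.4 to 57.5 in BBROA, mostly from Sox9, with Krt7 at no more than 3 counts. Of the adipocyte markers, Lep was at 0 in all libraries and Adipoq and Plin1 never exceeded 2 counts, whereas Fabp4 measured 15.4 to 16.3 CPM in Con, 58.7 to 64.2 in ConOA, 22.8 to 29.6 in BBR and 57.1 to 57.7 in BBROA. The part of these cells in the results below was not tested, and in bulk RNA fewer cells of a type and less RNA per cell cannot be told apart.

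Genes were called at an adjusted p-value under 0.05 (edgeR quasi-likelihood test, Benjamini-Hochberg adjustment over all genes tested). Mogat1 was too low to test, which left 8 enzymes. BBR against Con changed 5 of the 8, with Lpin1 and Lpin2 higher and Agpat2, Lpin3 and Dgat2 lower, where 27.7% of all genes tested were called (13.2% higher and 14.5% lower). With OA present, BBROA against ConOA changed 3 of the 8, Gpam, Agpat3 and Lpin2, all higher, against 4.59% of all genes (1.95% higher and 2.63% lower). With all 6 libraries and no further term in the model, no enzyme was called lower there by edgeR, DESeq2 or limma-voom, although 3 were lower at an unadjusted p-value under 0.05 by edgeR and 2 by each of the other tools. OA alone, ConOA against Con, raised Gpam and Lpin2 and lowered Dgat2, 3 of the 8 against 42.8% of all genes (21.3% higher and 21.5% lower), a share near the background. Under BBR, OA changed 7 of the 8 (BBROA against BBR, 38.9% of all genes called, 20.1% higher and 18.8% lower), with Gpam, Agpat2, Agpat3 and Lpin3 higher and Lpin1, Dgat1 and Dgat2 lower. The interaction, the BBR effect with OA minus that without, was called for 5 of the 8 (12.2% of all genes, 6.87% positive and 5.31% negative), positive for Gpam, Agpat2 and Agpat3 and negative for Lpin1 and Lpin2.

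The sizes were modest. The median absolute log2 fold change of the 8 enzymes was 0.18 in BBR against Con (0.14 over all genes tested), 0.20 in BBROA against ConOA (0.094), 0.14 in ConOA against Con (0.20) and 0.28 in BBROA against BBR (0.17). The signed medians were -0.13, -0.02, 0.04 and 0.06, so the enzymes did not move as a block in any comparison. Each group enters 2 of the 4 comparisons, so a low or high group shifts both of them. In BBROA against ConOA the number of genes called over the whole table, 563, dropped to between 216 and 373 when ConOA 2, BBROA 1, BBROA 2 or BBROA 3 was left out.

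**Figure D1:**
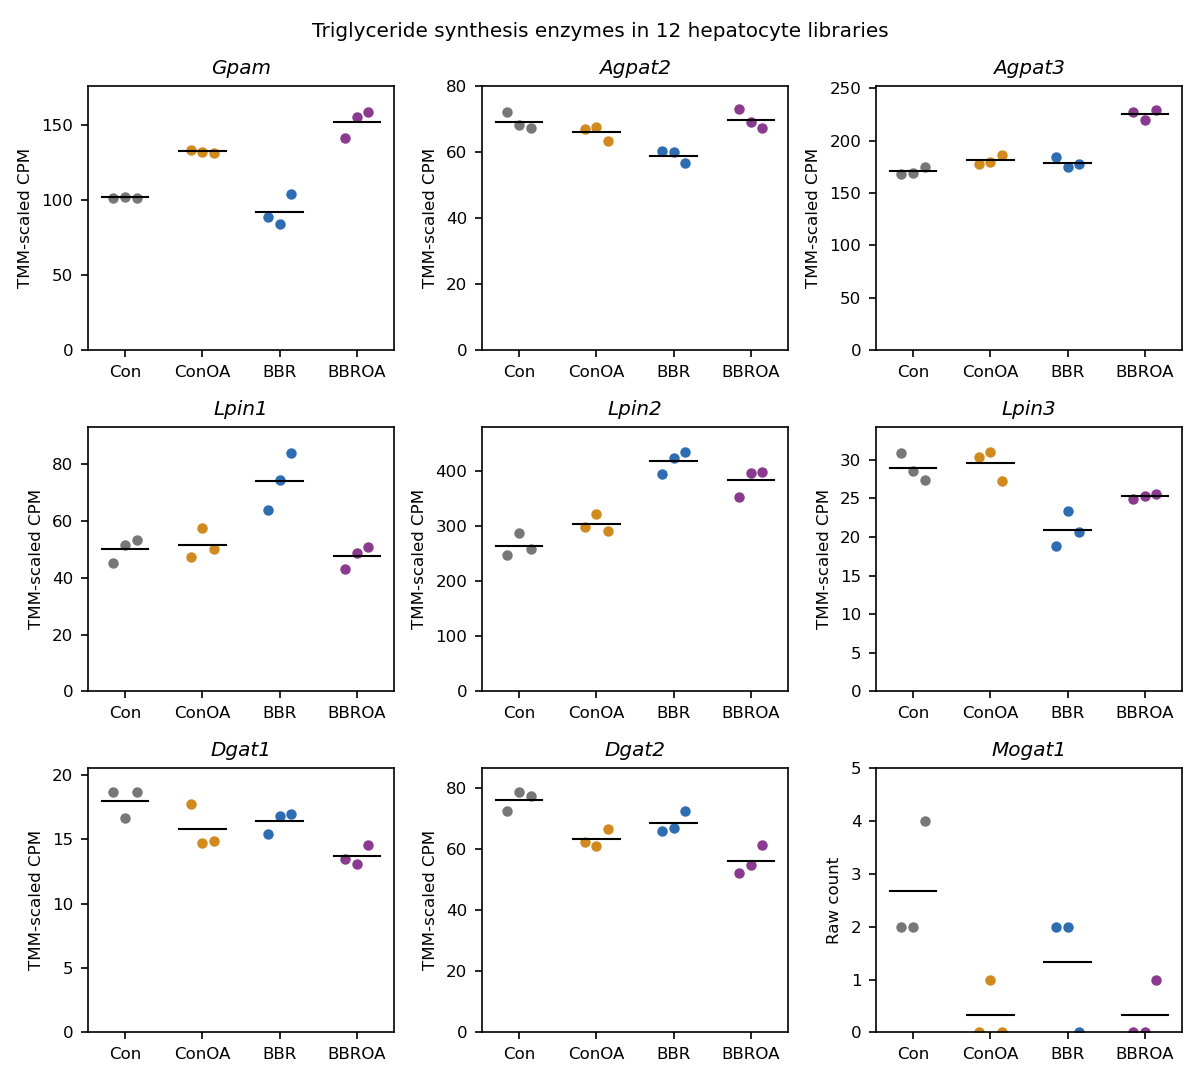
Level of each enzyme in the 12 libraries, as TMM-scaled CPM on a linear axis from 0 (raw counts for Mogat1). Points are libraries and bars group means. Lpin1 and Lpin2 are highest in BBR, where Lpin3 is lowest, and Gpam is higher in both OA groups than in either group without OA.

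Gpam (ENSMUSG00000024978, chr19:55067268-55127238, minus strand, GRCm38) had the largest OA-associated log2 fold changes of the 8 tested enzymes. It stood at 101, 102 and 102 TMM-scaled CPM in Con and at 133, 132 and 131 in ConOA. In BBR it measured 88.4, 84.1 and 104 CPM, and in BBROA 141, 155 and 158. All 6 OA-treated libraries were above all 6 others. OA raised Gpam by a log2 fold change of 0.39 ± 0.05 (SE) without BBR (1.31-fold, adjusted p = 1.03e-05) and by 0.71 ± 0.07 under BBR (1.64-fold, adjusted p = 1.66e-06).

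The effect of BBR on Gpam depended on OA. Without OA the difference was -0.13 ± 0.06, which was not called (adjusted p = 0.129), with BBR 3 above all Con libraries and the other two below them. When BBR 3 was left out the difference was -0.23 and was called (adjusted p = 0.00619). With all 6 libraries and the replicate number as a block it was -0.14 and also called (adjusted p = 0.0410). In OA-treated cells Gpam rose by 0.19 ± 0.05 (1.14-fold, adjusted p = 0.0469), and the groups did not overlap. That call sat at the threshold and was lost without ConOA 1, ConOA 2, ConOA 3, BBROA 2 or BBROA 3 (log2 fold changes of 0.20, 0.19, 0.19, 0.17 and 0.16). It was also lost with all 12 libraries in 1 edgeR fit (0.20, adjusted p = 0.0664). The interaction was 0.34 ± 0.09 (adjusted p = 0.0164). It was between 0.28 and 0.31 and no longer called without ConOA 2, BBR 2, BBROA 2 or BBROA 3.

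Agpat2 (ENSMUSG00000026922, chr2:26593057-26604417, minus strand), whose loss causes a form of lipodystrophy, was lowest in BBR. Its levels were 72.2, 68.1 and 67.2 CPM in Con, 66.9, 67.6 and 63.4 in ConOA, 60.3, 59.9 and 56.7 in BBR and 73.1, 69.0 and 67.4 in BBROA. The 3 BBR libraries lay below all 9 others. BBR lowered Agpat2 by 1.17-fold without OA (log2 fold change -0.22 ± 0.05, adjusted p = 0.00398), whereas with OA the difference was 0.08 ± 0.05 (adjusted p = 0.458). The interaction was 0.31 ± 0.07 (adjusted p = 0.00665). OA raised the gene under BBR by 0.24 ± 0.05 (adjusted p = 0.00149), while ConOA and Con differed by -0.06 ± 0.05 (adjusted p = 0.367). Its exons share 64 bases, 3.00% of their length, with Egfl7 on the opposite strand, and whether counting used strand is not given in the sources used here, so those reads cannot be assigned with certainty.

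Agpat3 (ENSMUSG00000001211, chr10:78269178-78352489, minus strand), the acyltransferase with a known preference for polyunsaturated chains, was highest with both agents. It measured 168, 169 and 175 CPM in Con, 178, 180 and 186 in ConOA, 184, 175 and 178 in BBR and 227, 219 and 229 in BBROA. The BBROA libraries were above all others, and the remaining 9 lay between 168 and 186 CPM. BBROA exceeded ConOA by 0.31 ± 0.05 (1.24-fold, adjusted p = 0.00116) and BBR by 0.33 ± 0.04 (1.26-fold, adjusted p = 2.02e-05). Neither agent alone passed the test, with 0.08 ± 0.04 for BBR (adjusted p = 0.224) and 0.10 ± 0.05 for OA (adjusted p = 0.110). The ConOA libraries were nevertheless all above Con, and so were the BBR libraries, by a very small margin (lowest 174.589 CPM, against 174.573 for Con 3). With the replicate number as a block, the OA rise was called (adjusted p = 0.0189) and the BBR difference was not (adjusted p = 0.188). The interaction was 0.24 ± 0.06 (adjusted p = 0.00958).

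Lpin1 (ENSMUSG00000020593, chr12:16535669-16610966, minus strand), a lipin that also acts as a transcriptional coactivator, was high in a single group, BBR. It stood at 45.2, 51.6 and 53.4 CPM in Con and at 63.8, 74.5 and 83.9 in BBR. In ConOA it measured 47.5, 57.4 and 50.1 CPM, and in BBROA 43.1, 48.8 and 50.8. The BBR group was above every other library, and the remaining 3 groups overlapped. The rise over Con was 0.57 ± 0.08 (1.48-fold, adjusted p = 8.07e-05), and the difference between BBROA and ConOA was -0.13 ± 0.08 (adjusted p = 0.410). The interaction of -0.68 ± 0.13 (adjusted p = 0.00197) was the largest in size among the 8 enzymes. Under BBR, OA lowered Lpin1 by 1.56-fold (log2 fold change -0.64 ± 0.09, adjusted p = 4.38e-05), and without BBR the OA difference was 0.05 ± 0.08 (adjusted p = 0.620).

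Lpin2 (ENSMUSG00000024052, chr17:71182560-71249817, plus strand), regarded as the main lipin of liver, rose with BBR in both settings. Its levels were 247, 287 and 258 CPM in Con and 394, 423 and 433 in BBR, a rise of 0.67 ± 0.06 (1.59-fold, adjusted p = 4.02e-07). With OA they were 299, 321 and 291 CPM in ConOA and 353, 397 and 397 in BBROA, a rise of 0.33 ± 0.06 (1.26-fold, adjusted p = 0.00395). All 6 BBR-treated libraries were above all 6 others. The interaction was -0.33 ± 0.09 (adjusted p = 0.0178) and was -0.28 and not called without Con 1 (adjusted p = 0.0536). OA alone raised Lpin2 by 0.21 ± 0.06 (adjusted p = 0.0112), a call lost without Con 1 (0.16) or ConOA 2 (0.17). BBROA and BBR overlapped and differed by -0.12 ± 0.05 (adjusted p = 0.0753). The difference was called without BBR 1 (-0.16), under upper quartile scaling (-0.17) and with the replicate number as a block.

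Lpin3 (ENSMUSG00000027412, chr2:160880670-160906002, plus strand), the least abundant lipin, went the other way. It measured 30.9, 28.6 and 27.4 CPM in Con, 30.3, 31.0 and 27.3 in ConOA, 18.9, 23.3 and 20.7 in BBR and 24.9, 25.3 and 25.6 in BBROA. The BBR libraries were the lowest 3 and the BBROA libraries the next 3. BBR lowered Lpin3 by 1.38-fold without OA (-0.47 ± 0.08, adjusted p = 0.000369). With OA the difference was -0.23 ± 0.07 and was not called (adjusted p = 0.0757), although the groups did not overlap. It was called without ConOA 3 (-0.28) and with the replicate number as a block (adjusted p = 0.0343). The interaction, 0.25 ± 0.11, was not called either (adjusted p = 0.148). OA raised Lpin3 under BBR by 0.28 ± 0.08 (adjusted p = 0.0108), or by 0.21 and not called without BBR 1 (adjusted p = 0.0559).

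**Figure D2:**
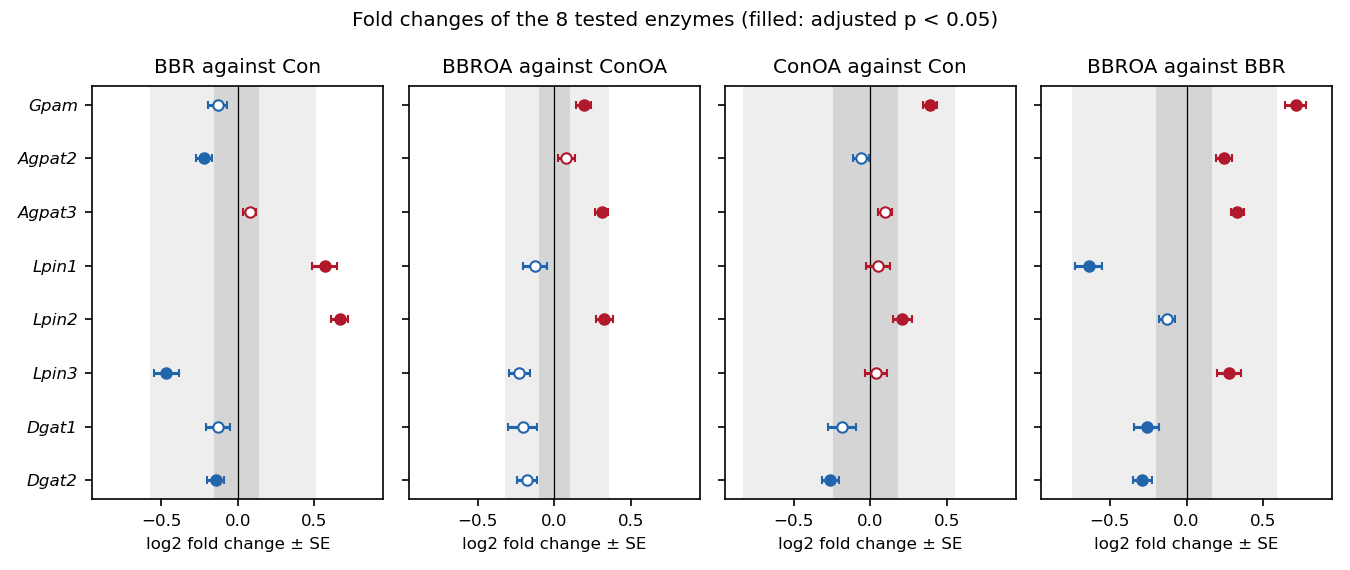
Log2 fold change with its SE for the 8 tested enzymes in each comparison. Filled points have an adjusted p-value under 0.05, red is above 0 and blue below, and the dark and light bands hold the central 50% and 90% of all genes tested. In BBR against Con, Lpin1 and Lpin2 lie above the light band and no enzyme below it, and in BBROA against BBR only Gpam lies outside it.

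Because the deposited FPKM values are scaled by transcript length, they allow the isozymes of a step to be compared. In Con, Lpin2 supplied 76.7% ± 1.2 (SD, n = 3) of the summed lipin FPKM, Lpin1 12.7% ± 1.0 and Lpin3 10.6% ± 1.1. The summed lipin level was 80.8 ± 4.9 FPKM in Con, 90.1 ± 6.8 in ConOA, 122 ± 5.7 in BBR and 107 ± 5.9 in BBROA. In BBR the share of Lpin3 was 5.05% ± 0.40, that of Lpin2 82.5% ± 1.1 and that of Lpin1 12.5% ± 1.0. In BBROA Lpin2 took 84.0% ± 0.2, and Lpin1 9.11% ± 0.37, the lowest share it had in any group. The lipin pool was thus larger in both BBR-treated groups, and the lowest Lpin2 share among the BBR-treated libraries, 81.5%, was above the highest among the others, 79.3%.

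Across all 9 genes, Agpat3 had the highest FPKM in Con (94.0 ± 4.3), followed by Lpin2 (62.0 ± 4.7), Agpat2 (47.4 ± 1.9), Dgat2 (34.1 ± 1.3), Gpam (26.8 ± 0.2), Dgat1 (11.0 ± 1.2), Lpin1 (10.3 ± 0.8) and Lpin3 (8.50 ± 0.56). Among these neighbours only Dgat1 and Lpin1 overlapped. In BBR the top of the order closed up, with Lpin2 at 100.2 ± 3.4 FPKM and Agpat3 at 98.8 ± 2.1, which overlapped. Lpin1, at 15.2 ± 1.9 FPKM, stood above Dgat1 (9.61 ± 1.14) there without overlap.

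**Figure D3:**
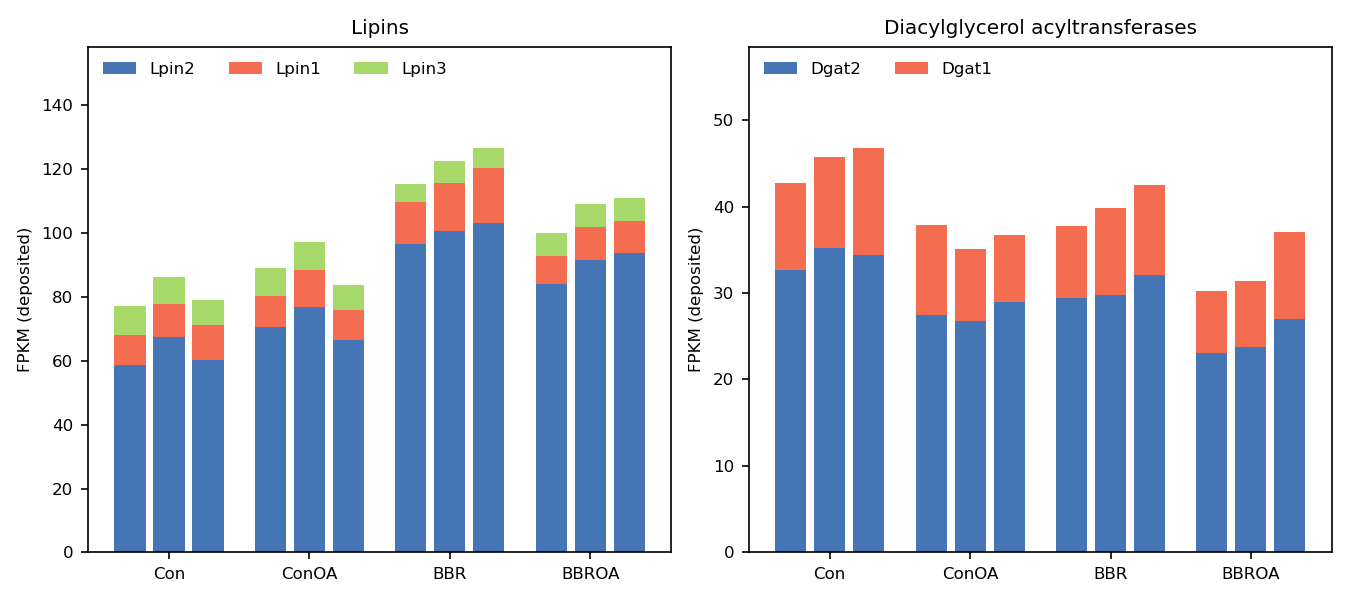
Deposited FPKM of the lipins (left) and of the diacylglycerol acyltransferases (right), stacked by isozyme, with a bar for each library. Lpin2 forms most of every lipin bar and the BBR bars are the tallest, while Dgat2 forms about the same share of each bar in all 4 groups.

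Dgat1 (ENSMUSG00000022555, chr15:76502015-76511953, minus strand), one of the enzymes of the final step, was the lowest of the tested genes by CPM. Its levels were 18.6, 16.7 and 18.7 CPM in Con, 17.7, 14.7 and 14.9 in ConOA, 15.4, 16.8 and 17.0 in BBR and 13.5, 13.1 and 14.5 in BBROA. The BBROA libraries were the lowest 3, by a margin smaller than the spread within ConOA. The only call was BBROA against BBR, a 1.20-fold fall (-0.26 ± 0.08, adjusted p = 0.0224), and it was lost with DESeq2 (adjusted p = 0.0742) and without BBR 2, BBR 3, BBROA 1 or BBROA 2 (-0.24, -0.23, -0.25 and -0.23). OA alone gave -0.19 ± 0.09 (adjusted p = 0.110), which became -0.28 and was called without ConOA 1. With BBR the differences were -0.13 ± 0.08 without OA (adjusted p = 0.250) and -0.21 ± 0.09 with it (adjusted p = 0.254).

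Dgat2 (ENSMUSG00000030747, chr7:99153658-99182719, minus strand), the acyltransferase tied to newly made fatty acids, was lower in both OA groups than in their controls. It stood at 72.4, 78.6 and 77.5 CPM in Con and 62.4, 60.9 and 66.5 in ConOA, a fall of 0.26 ± 0.06 on the log2 scale (1.20-fold, adjusted p = 0.00169). In BBR it measured 66.1, 67.1 and 72.5 CPM and in BBROA 52.3, 54.7 and 61.5, a fall of 0.29 ± 0.06 (1.22-fold, adjusted p = 0.0019). Neither pair of groups overlapped, and the interaction was -0.02 ± 0.09 (adjusted p = 0.914). The fall with BBR alone, -0.15 ± 0.05, was at the threshold (adjusted p = 0.0495), the groups touched, and 10 of 13 alternatives did not call it. Among these were DESeq2 (adjusted p = 0.115) and the fits without Con 2, Con 3, BBR 1 or BBR 2 (-0.12, -0.13, -0.12 and -0.13). With OA present the BBR difference was -0.18 ± 0.06 (adjusted p = 0.140), called only with the replicate number as a block (adjusted p = 0.0271).

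The summed FPKM of the 2 acyltransferases was 45.1 ± 2.1 in Con, 36.5 ± 1.4 in ConOA, 40.0 ± 2.4 in BBR and 32.9 ± 3.6 in BBROA. Dgat2 made up 75.6% ± 1.8, 75.9% ± 3.2, 76.1% ± 1.7 and 75.1% ± 1.9 of it, so the balance of the isozymes was within the spread between libraries in every group. The ratio of FPKM to CPM for Dgat1 varied 1.31-fold between libraries, against at most 1.11-fold for the other tested enzymes, so its FPKM shares are less certain. Neither gene of this final step was called higher in any comparison. Of all genes tested, 13.2% were called higher in BBR against Con and 1.95% in BBROA against ConOA. The shares were 21.3% in ConOA against Con and 20.1% in BBROA against BBR, so no contrast with the other steps is drawn.

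Mogat1 (ENSMUSG00000012187, chr1:78510991-78538173, plus strand), a gene known to respond to PPAR gamma in fatty liver, was close to undetected. It had 2, 2 and 4 counts in Con, 0, 1 and 0 in ConOA, 2, 2 and 0 in BBR and 0, 0 and 1 in BBROA. Only Con replicate 3 exceeded the floor of 3 counts, so no fold was computed and a change was not detectable at this depth. Its exons share 200 bases with BC035947 on the opposite strand, which had no counts.

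As a description over the 12 libraries, which include the 4 group means and therefore the treatment effects, the members were compared with each other by Pearson's r of log2 CPM. Dgat1 and Dgat2 followed each other (r = 0.82), as did Gpam and Agpat3 (r = 0.75). Agpat2 and Lpin1 ran in opposite directions (r = -0.92), as did Lpin2 and Lpin3 (r = -0.76). Agpat3 was opposed to Dgat1 (r = -0.82) and Dgat2 (r = -0.80). Lpin1 and Lpin2 shared only part of their pattern (r = 0.60).

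Over the same 12 libraries, 9714 genes were searched for the pattern most like each enzyme. Gpam was closest to Rora, a nuclear receptor (r = 0.98), and Atf5, a stress-responsive transcription factor (r = 0.98). Agpat3 was closest to Acadvl and Etfb, both of mitochondrial fatty acid oxidation (r = 0.96 and 0.94). Lpin2 was closest to Ttc14 (r = 0.98) and to Pdk1, a kinase of pyruvate dehydrogenase (r = 0.98). Lpin1 came nearest to Tanc2 and Snx30 (r = 0.97 and 0.96), Agpat2 to Myo18a and Dusp12 (r = 0.94 and 0.93) and Dgat2 to Csk and Galnt10 (r = 0.96 for both). Dgat1 was nearest to Pcif1 and Tcf3 (r = 0.93 and 0.91). For Lpin3 an assembled locus without a gene symbol (r = 0.92) and Ampd2, an AMP deaminase (r = 0.92), were nearest. These are rankings from a large search and are given without a test.

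The enzymes that supply or parallel the same steps were followed in 4 lists, whose counts are to be read against the shares of all genes called: 27.7% in BBR against Con, 4.59% in BBROA against ConOA, 42.8% in ConOA against Con, 38.9% in BBROA against BBR and 12.2% in the interaction. Over all genes tested the median log2 fold change lay between -0.0061 and -0.00031 in the 4 comparisons. Of 14 other genes of glycerolipid synthesis and glycerol supply, 10 were tested. Their median log2 fold change, in the same order of comparisons, was -0.10, 0.06, -0.03 and 0.11. With BBR alone 2 were higher and 4 lower. Gpat3, a microsomal counterpart of Gpam, went from 14.2 ± 1.0 to 24.3 ± 0.8 CPM (log2 fold change 0.79 ± 0.08, adjusted p = 1.53e-06). Agpat5 rose by 0.41 ± 0.05 (adjusted p = 2.03e-05). Gpd1, which makes glycerol 3-phosphate from a glycolytic intermediate, went from 122 ± 12 to 72.0 ± 10.6 CPM (-0.75 ± 0.09, adjusted p = 6.85e-06), and its paralog Gpd1l fell by 0.38 ± 0.09 (adjusted p = 0.00329).

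Under BBR, OA raised Gpd1 by 0.42 ± 0.08 and Gpd1l by 0.49 ± 0.09 (adjusted p = 0.000941 and 0.000459), whereas Gpat3 fell by 0.22 ± 0.08 (adjusted p = 0.0332). The interaction was positive for Gpd1 (0.64 ± 0.14) and Gpd1l (0.48 ± 0.11) and negative for Gpat3 (-0.61 ± 0.12) and Agpat5 (-0.24 ± 0.07), 5 of the 10 being called in all. OA alone changed 6 of the 10, with Gpat3 (0.39 ± 0.09) and Agpat5 (0.37 ± 0.06) higher and Lclat1 (-0.30 ± 0.07) and Aqp9, a glycerol channel (-0.15 ± 0.05), lower. In BBROA against ConOA only Lclat1 was called, at 0.32 ± 0.07 (adjusted p = 0.0258).

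In the phospholipid branch, which draws on the same intermediates, 15 of 17 genes were tested, with medians of -0.03, -0.01, 0.11 and 0.15. BBR alone raised 2 and lowered 3, a share near the 27.7% of all genes. Those higher were Etnk1 (0.24 ± 0.05) and Pcyt2 (0.20 ± 0.05), both of phosphatidylethanolamine synthesis, and the largest falls were those of Ptpmt1, of cardiolipin synthesis (-0.41 ± 0.06), and Etnk2, an ethanolamine kinase (-0.23 ± 0.08). OA raised 6 and lowered 3 without BBR, and raised 8 and lowered 1 with it. Pcyt2 was the largest rise in both, from 81.8 ± 3.8 to 142 ± 2.8 CPM (0.81 ± 0.05, adjusted p = 2.33e-08) and from 93.8 ± 4.0 to 152 ± 3.3 CPM (0.70 ± 0.04, adjusted p = 3.18e-08). Pgs1 (0.41 ± 0.08 without BBR) and Crls1 (0.36 ± 0.06 with it), both of cardiolipin synthesis, were also higher. Lower with OA were Chpt1 (-0.27 ± 0.10) and Etnk2 (-0.24 ± 0.08) without BBR and Cds2 (-0.11 ± 0.04) with it. The only interaction called was that of Etnk2 (0.40 ± 0.12, adjusted p = 0.0355). In BBROA against ConOA no gene of the branch was called by edgeR, and 3 had an unadjusted p-value under 0.05.

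Among 13 genes of triglyceride hydrolysis, storage and secretion, BBR alone raised 4 and lowered 3 of 13 tested, and the medians were 0.08, 0.04, -0.29 and -0.16. Lipe, the hormone-sensitive lipase, went from 9.23 ± 1.38 to 12.5 ± 0.6 CPM (0.44 ± 0.11, adjusted p = 0.00584). Pnpla2, the lipase that takes the first acyl chain off triglyceride, rose by 0.25 ± 0.05 without OA (adjusted p = 0.00199) and by 0.32 ± 0.05 with OA (adjusted p = 0.00362). Mgll, which hydrolyses monoacylglycerol, stood at 11.6 ± 1.7 CPM in Con, 5.56 ± 1.77 in ConOA, 6.56 ± 1.76 in BBR and 11.8 ± 1.3 in BBROA. Each agent alone lowered it (-0.79 ± 0.15 for BBR and -1.05 ± 0.18 for OA), BBROA exceeded ConOA by 1.08 ± 0.18 (adjusted p = 0.00283), and the interaction was 1.88 ± 0.27 (adjusted p = 0.000161). Bscl2, the seipin of lipid droplet formation, fell by 0.71 ± 0.11 with BBR alone (adjusted p = 0.000126) and had an interaction of 0.87 ± 0.16 (adjusted p = 0.00137), one of 4 called in the list.

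With OA, G0s2, an inhibitor of Pnpla2, fell by 0.73 ± 0.10 without BBR and fell by 1.25 ± 0.18 with it (adjusted p = 2.96e-05 and 7.4e-05). In BBROA against ConOA it fell by 0.49 ± 0.13 (adjusted p = 0.0469). In all, OA raised 3 and lowered 5 of the list without BBR, and raised 3 and lowered 4 with it. Without BBR the rises included Fitm2, of lipid droplet formation (0.23 ± 0.08), and Pnpla2 (0.17 ± 0.06). With BBR they included Mgll (0.82 ± 0.16, adjusted p = 0.000814). Mttp, which loads lipid onto apolipoprotein B for secretion, was higher in BBROA than in BBR by 0.38 ± 0.05 (adjusted p = 7.49e-05). It stood at 172 ± 13 CPM in Con, 155 ± 16 in ConOA, 126 ± 10 in BBR and 165 ± 6 in BBROA. BBR alone lowered Mttp by 0.44 ± 0.06 (adjusted p = 6.75e-05), and its interaction was 0.53 ± 0.10 (adjusted p = 0.00161). Ces1d, a microsomal hydrolase, was lower in BBROA than in BBR by 0.62 ± 0.09 (adjusted p = 7.88e-05). BBROA against ConOA had 2 genes higher and 1 lower of 12 tested.

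Of 16 regulators of lipid synthesis, all tested, BBR alone raised 3 and lowered 2, a share near the 27.7% of all genes, and the medians were 0.01, -0.01, -0.05 and -0.01. Insig1, which retains the sterol sensor complex in the endoplasmic reticulum, went from 109 ± 7 to 214 ± 21 CPM (0.97 ± 0.06, adjusted p = 3.08e-08), and Srebf1, the lipogenic transcription factor, from 98.5 ± 3.6 to 126 ± 3 CPM (0.36 ± 0.05, adjusted p = 2.21e-05). Mlxipl, the carbohydrate-response factor ChREBP, fell by 0.51 ± 0.06 (adjusted p = 5.86e-06). None of the 16 was called in BBROA against ConOA by edgeR, and 6 had an unadjusted p-value under 0.05. The interaction was negative for Insig1 (-1.16 ± 0.10) and Srebf1 (-0.23 ± 0.07) and positive for Mlxipl (0.38 ± 0.09) and Nr1h3 (0.28 ± 0.08).

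OA raised 5 and lowered 5 regulators in each setting. Insig1 rose by 0.45 ± 0.07 without BBR (adjusted p = 0.000138) and fell by 0.72 ± 0.06 with it (adjusted p = 4.23e-07). Pparg, the nuclear receptor PPAR gamma, fell by 0.62 ± 0.10 without BBR and fell by 0.94 ± 0.11 with it (adjusted p = 0.000129 and 1.53e-05), from 12.8 ± 0.8 to 8.26 ± 0.42 CPM and from 12.7 ± 1.2 to 6.58 ± 0.66 CPM. Ppara, the receptor PPAR alpha of fatty acid oxidation, rose by 0.62 ± 0.12 and 0.43 ± 0.16 (adjusted p = 0.000871 and 0.0447). Usf1 fell by 0.24 ± 0.07 without BBR (adjusted p = 0.0101), and Nr1h3, the oxysterol receptor LXR alpha, rose by 0.36 ± 0.06 with it (adjusted p = 0.000325).

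**Figure D4:**
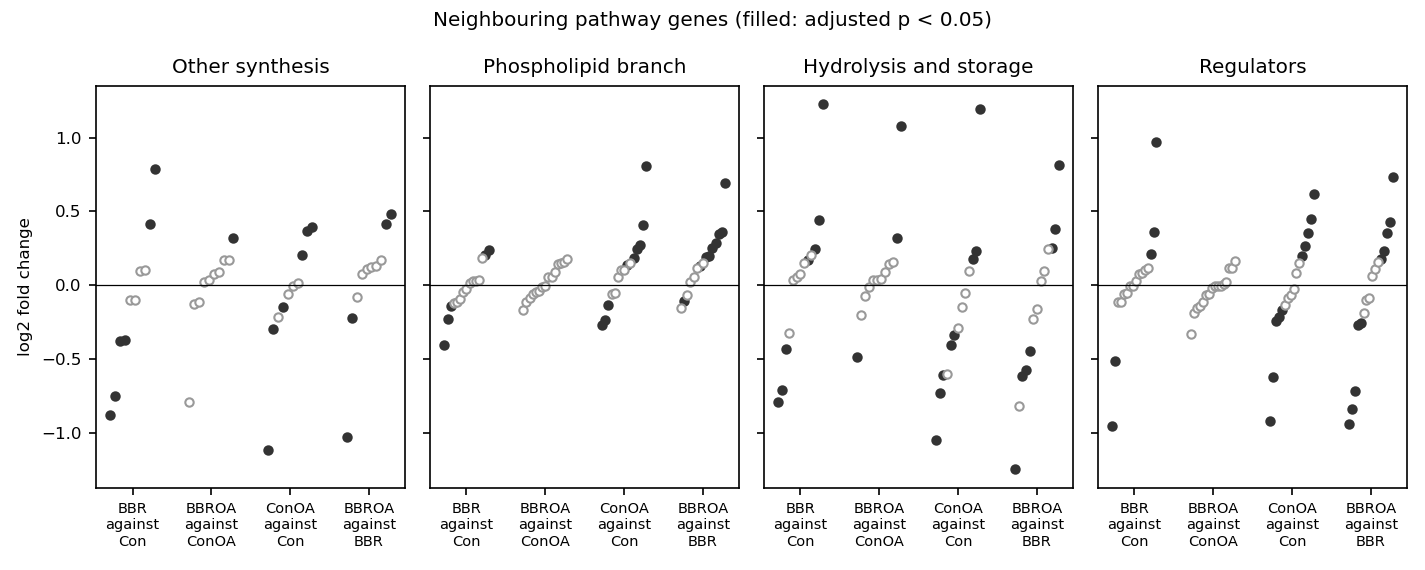
Log2 fold change of every tested gene of the 4 neighbouring lists, sorted within each comparison. Filled points have an adjusted p-value under 0.05. BBROA against ConOA has the fewest filled points in every list, with none in the phospholipid branch or among the regulators.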

How the data were processed

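RNA of 12 libraries of primary cultured mouse hepatocytes was enriched for polyadenylated transcripts and sequenced on an Illumina instrument, per the labels. For each library the authors deposited estimated counts per feature, of which 2862 features had a fractional count and were rounded here (no value of the 9 genes was fractional). The deposited FPKM values, scaled by the authors for depth and transcript length, were used only for levels between genes and isozyme shares. The submitters' processing notes name the build mm10. The aligner, the counting program, and whether counting used strand are not given in the sources used here. Groups and replicate numbers came from the sample titles, and doses, time, strain and age from the study's methods.

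A pair of groups was compared with its own 6 libraries, and the interaction was estimated from all 12, in edgeR 4.0.16 (R 4.3.3) with TMM scaling, filterByExpr at its minimum count of 10, the two-sided quasi-likelihood F test and Benjamini-Hochberg adjustment over all genes tested. SEs were derived from the F statistic. Alternatives were RLE and upper quartile scaling, no low-count filter, DESeq2 1.42.0, limma-voom (limma 3.58.1), the replicate number as a block, all 12 libraries in 1 fit, each library left out in turn, and a fold of at least 1.5. Pairs of libraries within a group had a chi-square per degree of freedom of 2.76 to 7.61 over genes, so none was counted as a repeat of another.

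The 9 genes, the 4 neighbouring lists and the marker lists were chosen with earlier results of these data known. From each list and comparison the text names up to 2 rises and 2 falls, the largest among called genes whose higher group averaged 5 CPM or more, and, for each tested enzyme, the 2 genes with the highest Pearson's r of log2 CPM. Outside this rule, further values of Mttp and the interactions of Gpat4, Agpat1, Lclat1 and Mogat2 are given beside named genes. Genes were placed with GENCODE M21 (GRCm38), and promoter windows are from RefSeq.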

Additional observations from a re-analysis of the deposited data

Results flagged for a closer look

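For 5 of the 8 tested enzymes the effect of BBR differed with and without OA by the interaction term of the edgeR quasi-likelihood test on all 12 libraries. The difference of log2 fold changes, with OA minus without, was 0.34 for Gpam (-0.13 without OA, 0.19 with OA), 0.31 for Agpat2 (-0.22 and 0.08) and 0.24 for Agpat3 (0.08 and 0.31). It was -0.68 for Lpin1 (0.57 and -0.13) and -0.33 for Lpin2 (0.67 and 0.33). Gpam, Agpat2 and Agpat3 thus had the more positive BBR effect with OA, and Lpin1 and Lpin2 the less positive one. Among the tested acyltransferases of the list of other synthesis genes, the interaction was called for Gpat3 and Agpat5, both negative. It was -0.61 for Gpat3 (adjusted p = 0.00181) and -0.24 for Agpat5 (adjusted p = 0.0408). It was not called for Gpat4 (0.14, adjusted p = 0.109), Lclat1 (0.23, adjusted p = 0.171), Mogat2 (0.10, adjusted p = 0.931) or Agpat1 (-0.07, adjusted p = 0.714). Gpat4 stood at 98.9 CPM in Con, against 14.2 for Gpat3. For Lpin2 the effect kept its direction in both settings, while for Gpam, Agpat2 and Lpin1 the estimates had opposite signs, of which only the Agpat2 and Lpin1 values without OA and the Gpam value with OA were called. No group had enough libraries for a check of single libraries that stand apart.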

How the results depend on the processing

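Of 40 tests of single enzymes, 23 were called. Of the 23, 16 kept their direction and call under every alternative except the fold of at least 1.5, which is given separately below. Over 560 alternative values, 511 kept direction and call, 29 lost and 11 gained a call, and 9 changed sign, none of these last called in any fit. The sign changes were Lpin1 in ConOA against Con (-0.015 without Con 1, range -0.028 to 0.11 over libraries left out), Lpin3 in ConOA against Con (-0.0099 with upper quartile scaling, -0.0011 without Con 3, up to 0.093 without ConOA 3), Dgat1 in the interaction (0.025 without ConOA 1, -0.13 without ConOA 2) and Dgat2 in the interaction (0.0082 to 0.021 without Con 1, ConOA 3, BBR 3 or BBROA 1, -0.11 without BBROA 3). With a fold of at least 1.5 required, 1 enzyme was called in BBR against Con, 0 in BBROA against ConOA, 0 in ConOA against Con, 2 in BBROA against BBR and 1 in the interaction. The counts of 0 (edgeR) could not change with the p-value threshold. The largest changes there were 1.26-fold (Lpin2, BBROA against ConOA) and 1.31-fold (Gpam, ConOA against Con), short of the fold required. DESeq2 and limma-voom also gave 0. Deviations from the group mean correlated weakly but positively between same-numbered libraries (0.023 to 0.155). In each comparison but BBROA against ConOA (5 of 6), 6 of 6 libraries correlated best with their own number. The main tests leave the replicate number out, and what the numbers stand for is not given. As a block it led to more genes called over the whole table in every comparison. With the replicate block, 5 enzymes were called in BBROA against ConOA (3 higher, and Lpin3 and Dgat2 lower, adjusted p = 0.0343 and 0.0271) and 5 in ConOA against Con (3 higher, 2 lower), and the block called 1333 genes instead of 563 in BBROA against ConOA over the whole table. Without low-count filter that number was 844, and it was 249 without ConOA 2, 373 without BBROA 1, 230 without BBROA 2 and 216 without BBROA 3. The interaction called 1551 genes, and 1027 without ConOA 2 or 1028 without BBR 2. Upper quartile scaling moved the split of calls from 2643 higher and 2668 lower to 2077 and 3216 in ConOA against Con, and from 2496 and 2330 to 1976 and 2870 in BBROA against BBR. The causes were not tested. At this depth Mogat1 could not be tested.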
